A study of Mus musculus with 6 samples.

Results

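The dual-specificity MAP kinase phosphatases Dusp1, Dusp4, Dusp5, Dusp6, and Dusp14 were followed through KCl depolarization of mouse cortical neurons in RNA bisulfite sequencing (RNA BS-seq) data. All listed cytosines that the deposited lists assign to these 5 genes were taken. There were 1278 such cytosines among 5240657 listed in at least 1 library, and the 5 genes stood among 15977 genes with a listed cytosine. Dusp4 held 460 of them, Dusp1 297, Dusp6 276, Dusp14 197, and Dusp5 48. All 1278 lay on the strand of their gene.

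The cells were wild-type C57BL/6 cortical neurons dissected at stage E16.5 from pooled male and female embryos and grown for 7 days in vitro. Every culture, the 0 h group included, was silenced overnight from day 6 with 1 µM tetrodotoxin and 100 µM DL-AP5, blockers of sodium channels and NMDA receptors. They were harvested without KCl (0 h) or after depolarization by 55 mM KCl lasting 2 h or 6 h. Each time point had 2 biological replicates, which gave 6 libraries of poly(A) RNA. The 2 replicates limit the precision of each mean, and the 0 h libraries serve both comparisons with 0 h.

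MAP kinases (ERK, JNK, and p38) are switched on when a threonine and a tyrosine in their activation loop are phosphorylated. Dual-specificity MAP kinase phosphatases remove both phosphates, and transcription of several of them is itself driven by ERK or calcium signaling, so they act as feedback brakes. Dusp1 (MKP-1) is an immediate early gene whose nuclear product acts on ERK, JNK, and p38. Dusp4 (MKP-2) is also nuclear, Dusp5 is nuclear and selective for ERK, and Dusp6 (MKP-3) is cytoplasmic and selective for ERK. Dusp14 (MKP-6) is a small phosphatase without the kinase-binding domain of the others.

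In RNA BS-seq, bisulfite converts unmethylated cytosines, which are read as T, and an unconverted read counts towards 5-methylcytosine (m5C). The deposited lists give, for each cytosine, its coverage in reads, the unconverted reads, and the level, which is the share of unconverted reads. A position was listed only with coverage of at least 10 and at least 1 unconverted read. Only positions with reference base C and the deposited state M were used, and these are the listed cytosines here. A cytosine that was not listed in a library therefore had no unconverted read there, fewer than 10 reads, or another state. The lists held 1564646 to 2380612 positions per library. Of these, 1559828 to 2374392 were used, at a median coverage of 324 to 480 reads, and the 6 h replicate 1 library stood apart. Its unconverted share at deeply covered cytosines was 0.115% against 0.0837% to 0.0869% in the others, and 66.4% of its listed nuclear cytosines lay in runs of at least 10 neighbouring listed cytosines, against 47.0% to 52.2%.

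The listed cytosines of the phosphatases are shown first at the positions that recurred most and, for Dusp5 and Dusp6, at the highest level among positions with at least 20 reads. None of the 1278 positions was listed in all 6 libraries, and the positions below were chosen after their values were seen. The listed cytosine is the capital letter in each 21-base stretch of GRCm38, read 5′ to 3′ on the strand of the gene.
Dusp4, coding sequence, chr8:34818639-34818659: tgggccccttCgggagagggg
Dusp14, coding sequence, chr11:84048847-84048867: gccgctcggcCaccctctgta
Dusp5, 3′ UTR, chr19:53541488-53541508: ttcagaccatCcccaaggatg
Dusp6, 3′ UTR, chr10:99266929-99266949: aaaaaatgttCtttttaatcc

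The Dusp4 and Dusp14 cytosines were the only members listed in 5 libraries, and both were missing from the list of 0 h replicate 2. At the Dusp4 cytosine, 4 of 107 reads were unconverted in 0 h replicate 1, 4 of 405 and 1 of 335 after 2 h, and 2 of 454 and 4 of 509 after 6 h. Its level was thus 3.74% in the 0 h library and between 0.299% and 0.988% in the others. At the Dusp14 cytosine, 1 of 268 reads was unconverted in 0 h replicate 1, 3 of 963 and 1 of 718 after 2 h, and 2 of 981 and 3 of 1182 after 6 h, so its level stayed between 0.139% and 0.373%. The Dusp5 cytosine had 3 unconverted of 24 reads in 0 h replicate 2, a level of 12.5%, and the Dusp6 cytosine had 4 of 39 in 6 h replicate 2, a level of 10.3%. Neither was listed in any other library.

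No cytosine of the 5 genes passed the standard filter of coverage of at least 20, level of at least 10%, and at least 6 unconverted reads in any library. In the whole series, 8442 positions passed it in at least 1 library, and 3089 did so in both libraries of the same time point. The phosphatases gave 1931 listings over the 6 libraries, of which 1304 rested on 1 unconverted read. A level of 10% or more occurred 9 times, at coverages of 10 to 39 reads and with no more than 4 unconverted reads. At least 6 unconverted reads occurred 8 times, at levels of 0.683% to 3.02%. Accordingly, none of the sites tested for a change of level between time points lay in these genes, and no test of their m5C levels was made.

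The level at a listed cytosine cannot be lower than 1 read divided by its coverage. The median level of the listed cytosines in Dusp4 was 0.632% and 0.840% in the 0 h libraries, 0.220% and 0.461% after 2 h, and 0.184% and 0.199% after 6 h (replicates 1 and 2). The level that 1 read gives at the median coverage was 0.467% and 0.733%, 0.151% and 0.400%, and 0.127% and 0.168% in the same libraries. The medians of Dusp4 were thus lower after KCl in every library, and so was the level that 1 read can give there. The median over the listed positions of all 5 genes was 0.911% before KCl, 0.437% after 2 h, and 0.388% after 6 h. In Dusp14 the median was 0.719% and 0.986% before KCl, 3.33% and 2.67% after 2 h, and 0.167% and 0.221% after 6 h. The 2 h medians equalled the level that 1 read gives at the median coverage, and over positions with at least 50 reads they were 0.233% and 0.224%, against 0.654% and 0.986% before KCl. In Dusp1 the median of 6 h replicate 1 was 0.491% against a 1-read level of 0.177%, in a library where Dusp1 had runs. No level change is read from these medians.

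**Figure D1:**
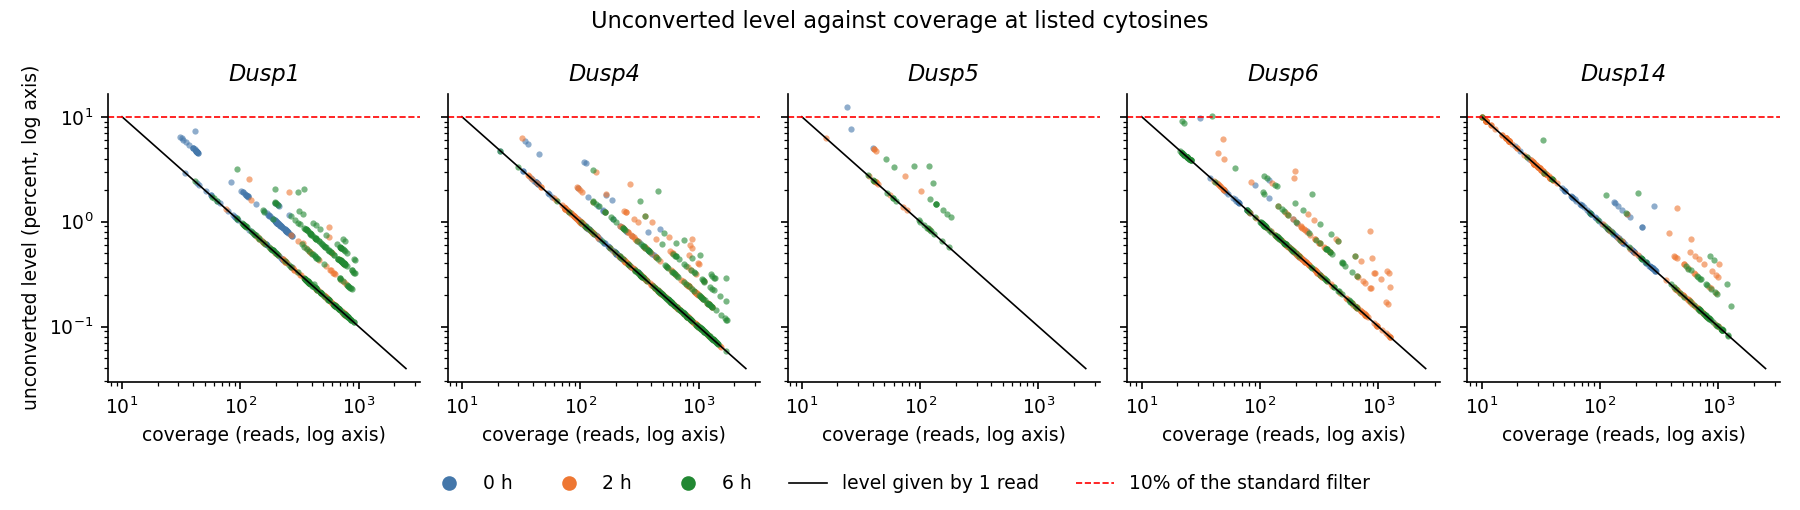
Unconverted level in percent (log axis) against coverage in reads (log axis) for each listed exonic cytosine of the 5 genes in each library, coloured by time of KCl. The black line is the level that 1 unconverted read gives, on which 1304 of the 1931 listings lie (intronic listings are not drawn), and the dashed red line is the 10% of the standard filter.

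The share of unconverted bases over the covered stretch of a transcript depends less on which cytosines were listed. It was computed as unconverted reads divided by coverage interpolated between listed cytosines. In Dusp4 it was 0.0624% and 0.128% before KCl, 0.0467% and 0.0826% after 2 h, and 0.0606% and 0.0473% after 6 h. In Dusp6 it was 0.0470% and 0.0502% before KCl, 0.0940% and 0.0578% after 2 h, and 0.116% and 0.0524% after 6 h. In Dusp4 the 2 h libraries overlapped those of both other time points. In Dusp6 both 0 h libraries lay below all KCl libraries, and the highest values were those of replicate 1 after 2 h and 6 h, the libraries in which Dusp6 had runs. Neither difference was tested. Dusp1 and Dusp14 each had a 0 h library far above its replicate. The share in Dusp1 was 0.0537% and 0.407% before KCl, 0.0652% and 0.0442% after 2 h, and 0.188% and 0.101% after 6 h. The share in Dusp14 was 0.401% and 0.0783% before KCl, 0.0947% and 0.1225% after 2 h, and 0.0517% and 0.0437% after 6 h.

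These high shares coincided with long runs of neighbouring listed cytosines. In Dusp1, 75.0% of the 108 cytosines listed in 0 h replicate 2 lay in runs of at least 10, as did 61.8% of 123 in 6 h replicate 1 and 42.5% of 127 in 6 h replicate 2. No listed cytosine of Dusp1 lay in such a run in 0 h replicate 1 or after 2 h. The longest run of the 5 genes covered 50 neighbouring cytosines of the Dusp1 coding sequence in 0 h replicate 2, at chr17:26506346-26506481 (GRCm38, minus strand). It had 2 unconverted reads at 47 of the 50 cytosines, at coverages of 31 to 207 reads. The stretch is printed to show how a run looks beside the replicate and beside a second library. Capitals mark the cytosines listed in the named library, and the sequence is read 5′ to 3′ on the minus strand.
Dusp1, 0 h replicate 1: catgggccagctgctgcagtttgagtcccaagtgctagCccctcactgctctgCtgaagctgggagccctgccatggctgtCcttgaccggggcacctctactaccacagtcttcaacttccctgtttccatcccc
Dusp1, 0 h replicate 2: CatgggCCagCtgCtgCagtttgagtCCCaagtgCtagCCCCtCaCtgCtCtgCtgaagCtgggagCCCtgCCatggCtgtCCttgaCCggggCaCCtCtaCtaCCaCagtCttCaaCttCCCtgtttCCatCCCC
Dusp1, 6 h replicate 1: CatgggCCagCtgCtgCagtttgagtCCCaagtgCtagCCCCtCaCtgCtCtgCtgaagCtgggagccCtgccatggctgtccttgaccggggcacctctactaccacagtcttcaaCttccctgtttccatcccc

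Over this stretch, 3 cytosines were listed in 0 h replicate 1, 9 and 5 after 2 h, and 22 and 7 after 6 h. By the definition of a run, every cytosine of the stretch was listed in 0 h replicate 2. Runs of the same kind occurred in Dusp4, Dusp6, and Dusp14, each in 2 or 3 of the 6 libraries. Dusp14 had a run of 38 in its coding sequence in 0 h replicate 1, with 1 unconverted read at 33 of them, and the Dusp14 cytosine printed above lay inside it. Dusp4 had a run of 46 in its coding sequence in 2 h replicate 2, with 1 unconverted read at 36 of them, and the cytosine of Dusp4 printed above lay inside it in that library. Dusp6 had a run of 38 in its 3′ UTR in 2 h replicate 1, with 1 unconverted read at 35 of them. Dusp5 had no run. Across the 5 genes, 16.4% to 57.6% of the listed cytosines of a library lay in runs, against 47.0% to 66.4% of all listed nuclear cytosines. The share in the 5 genes was the lower one in every library except 0 h replicate 2 (57.6% against 47.0%). Whether a run comes from RNA molecules that bisulfite left unconverted was not tested, since single reads were not used here.

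The sequence next to the listed cytosines was set beside that of the other genes. Of the 1278 positions, 29 (2.27%) carried GGG at bases 2 to 4 downstream, against 1.90% of the 5235407 other nuclear positions. The motif CTCCA, starting at the listed cytosine, was found at 7 (0.548%), against 0.738%. By position in the transcript (GENCODE M21), the coding sequence held 273 of the 297 listed cytosines of Dusp1, 275 of 460 in Dusp4, 125 of 276 in Dusp6, and 124 of 197 in Dusp14. In Dusp1 this was 75.4% of the coding cytosines against 14.8% of those in the 3′ UTR. In Dusp6 the order was the other way, with 36.7% of the coding cytosines and 53.7% of those in the 3′ UTR. Those 3′ UTR listings came mostly from 2 h replicate 1 (78) and 6 h replicate 1 (56), the libraries in which Dusp6 had runs, against 2 to 12 in the others. In both genes the 3′ UTR was less covered than the coding sequence in every library.

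Coverage was then used as a measure of transcript abundance. The main value of a gene was the mean coverage of its listed cytosines, in reads per cytosine, divided by a library factor. This factor was the coverage summed over the 213593 nuclear cytosines listed in all 6 libraries, relative to its geometric mean, and ranged from 0.846 to 1.15. Genes with at least 3 listed cytosines in every library, 10794 in all, were tested with limma, with Benjamini-Hochberg adjustment over all of them and a call at an adjusted p of at most 0.05. Dusp1, Dusp4, Dusp6, and Dusp14 were among them. Dusp5 was not, because it had no listed cytosine in 0 h replicate 1. Since the mean depends on which cytosines happen to be listed, a second value was added after the data were seen. It is the coverage interpolated between listed cytosines over the same window of the spliced transcript in all 6 libraries, which covered 344 cytosines in Dusp1, 564 in Dusp4, 437 in Dusp6, and 94 in Dusp14, and it was fitted in the same way over 10101 genes. In these bulk RNA samples, a change in the number of cells of a type and a change in RNA per cell cannot be told apart.

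All 4 tested phosphatases had higher coverage in each KCl library than in each 0 h library, as did 7.21% of all genes tested by the main value and 10.4% by interpolated coverage. By the main value, 3 of the 4 were called higher after 2 h, against 1.64% of all genes tested (7.98% were called in either direction), and 3 of the 4 after 6 h, against 6.95% (29.3% in either direction). By interpolated coverage, 4 of the 4 were called higher after 2 h, against 7.39% of genes (43.9% in either direction), and 4 of the 4 after 6 h, against 21.2%, with 0 called lower, against 41.9%. Between 2 h and 6 h, Dusp14 was called higher by both values, against 10.3% and 32.0% of genes. Dusp6 was called lower by interpolated coverage, against 28.3% (60.3% in either direction), and not by the main value, where 11.2% of genes were called lower. The median log2 change of all genes tested was −0.24 after 2 h and −0.26 after 6 h by the main value, and −0.22 and −0.19 by interpolated coverage, and the changes below are given without subtracting it. From 2 h to 6 h it was −0.02 and 0.04. With scaling by the median gene ratio, 3.25% of genes were called higher after 2 h and 13.5% after 6 h by the main value, in place of 1.64% and 6.95%, and the same phosphatases were called.

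**Figure D2:**
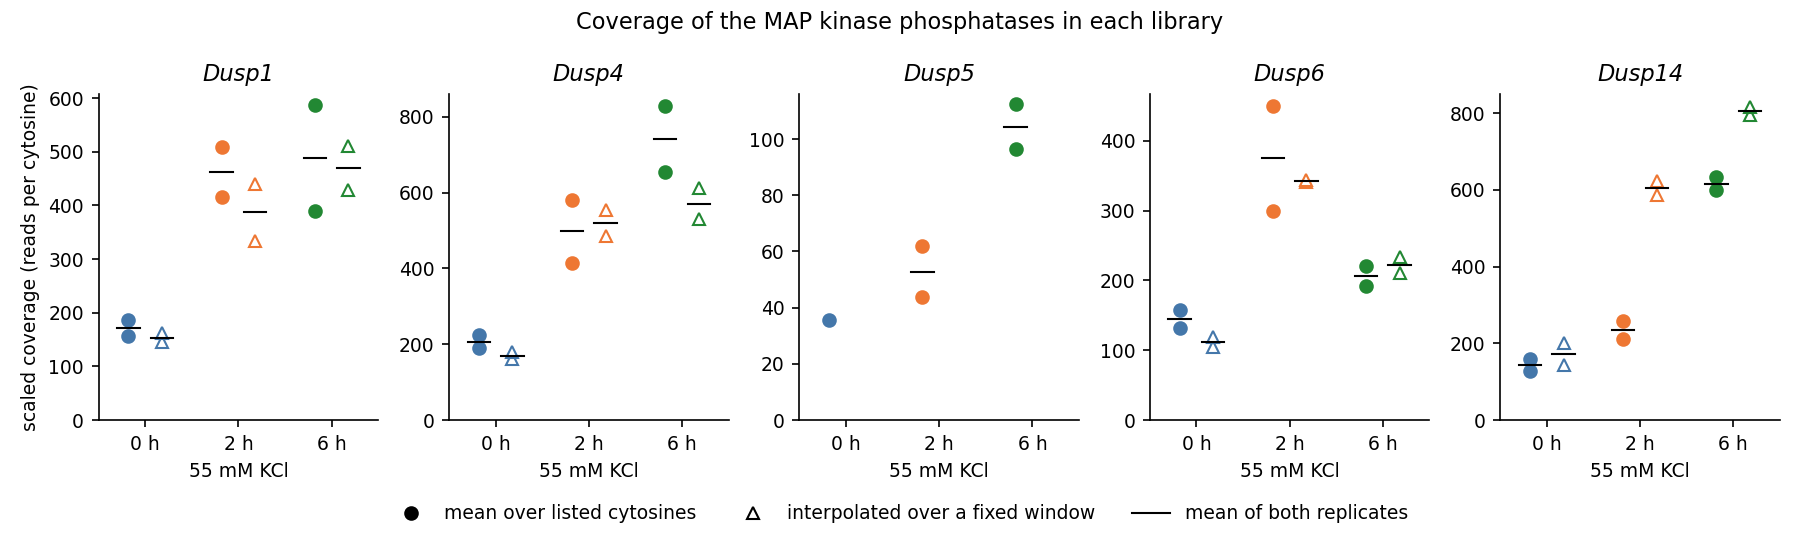
Scaled coverage in reads per cytosine of each phosphatase in each of the 6 libraries, as the mean over listed cytosines (filled circles) and as coverage interpolated over a fixed window (open triangles), with a line at the mean of the 2 replicates. In Dusp1, Dusp4, Dusp6, and Dusp14 both values are higher in each KCl library than in each 0 h library (7.21% and 10.4% of all genes tested were so), Dusp6 is highest after 2 h, and Dusp5 has no value in 0 h replicate 1.

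Dusp1 had risen by 2 h and stood at a similar level after 6 h. Its scaled mean coverage was 157 and 186.5 reads per cytosine before KCl, 416 and 509 after 2 h, and 587 and 390 after 6 h. The 0 h libraries lay below all others, and the 6 h libraries enclosed those of 2 h. Group means were 172 ± 20.5, 462.5 ± 66.35, and 488 ± 139 (SD, n = 2). The rise was 2.69-fold after 2 h (log2 1.43, SE 0.26, limma adjusted p = 0.0243) and 2.79-fold after 6 h (log2 1.48, adjusted p = 0.00779), while 2 h vs. 6 h gave a log2 change of 0.06 (adjusted p = 0.892), whose sign turned under 2 other scalings. Interpolated coverage gave 2.5-fold after 2 h and 3.05-fold after 6 h, with adjusted p = 0.000938 and 0.000155. Between 2 h and 6 h it gave a log2 change of 0.29 that was not called (adjusted p = 0.1445) and was called without 2 h replicate 2 (0.49, adjusted p = 0.0211).

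Dusp4 rose after 2 h and 6 h. Its scaled mean coverage was 223 and 190 before KCl, 582 and 413.5 after 2 h, and 828 and 653 after 6 h, with no overlap between any time points. Group means were 207 ± 23.4, 497.5 ± 119, and 741 ± 124 (SD, n = 2). The rise was 2.38-fold after 2 h (log2 1.25, SE 0.24, limma adjusted p = 0.0286) and 3.57-fold after 6 h (log2 1.84, adjusted p = 0.00363). By interpolated coverage, Dusp4 stood 3.07-fold higher after 2 h and 3.36-fold higher after 6 h than before KCl, and the libraries of 2 h (554 and 486) and 6 h (611.5 and 530) overlapped. The 2 h vs. 6 h change was not called by either value, with adjusted p = 0.125 and 0.321.

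Dusp6 was highest after 2 h. Its scaled mean coverage was 131.5 and 157 before KCl, 299 and 450 after 2 h, and 192 and 221 after 6 h. The 3 time points did not overlap, with means of 144 ± 18.04, 375 ± 107, and 206.5 ± 20.7 (SD, n = 2). The rise after 2 h was 2.55-fold (log2 1.35, SE 0.28, limma adjusted p = 0.0325). The 0 h vs. 6 h difference of 1.43-fold and the 2 h vs. 6 h log2 change of −0.83 were not called by the main value (adjusted p = 0.195 and 0.0713). Interpolated coverage was 105 and 119 before KCl, 341.5 and 343.5 after 2 h, and 234 and 210 after 6 h. In that fit the rise was 3.07-fold after 2 h (adjusted p = 0.00014) and 1.98-fold after 6 h (adjusted p = 0.000246), and coverage fell by 0.63 on the log2 scale from 2 h to 6 h (adjusted p = 0.00211).

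Dusp14 had the highest interpolated coverage of the 4 tested members after KCl, over a window within its coding sequence. Its scaled mean coverage was 160 and 127 before KCl, 259 and 212 after 2 h, and 633 and 599 after 6 h, with group means of 144 ± 22.8, 236 ± 33.5, and 616 ± 24.0 (SD, n = 2). By this value it was 4.32-fold higher after 6 h than before KCl (log2 2.11, SE 0.23, limma adjusted p = 0.0027) and 2.63-fold higher than after 2 h (adjusted p = 0.0131), while the 1.64-fold difference after 2 h was not called (adjusted p = 0.101). Interpolated coverage was 200 and 145 before KCl, 624 and 587 after 2 h, and 794 and 816 after 6 h. That is 3.56-fold after 2 h (adjusted p = 0.000258), 4.735-fold after 6 h (adjusted p = 3.54e-05), and 1.33-fold between 2 h and 6 h (adjusted p = 0.0417). The gene was thus called higher after 2 h by interpolated coverage and not by the main value.

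The listed positions of Dusp14 show where the fits part. At 2 h, 40 of its 74 and 55 of its 88 listed cytosines lay in the 3′ UTR, at a mean coverage of 20.25 and 28.1 reads. At 0 h no cytosine of that 3′ UTR was listed, and after 6 h only 1 and 4 were. In the coding sequence alone, the mean coverage before scaling was 163 and 108 reads before KCl, 643 and 518 after 2 h, and 685 and 819 after 6 h. The coding sequence thus separated 0 h from 2 h in every library, and the mean over all listed cytosines after 2 h took in the thinly covered 3′ UTR. For Dusp6, likewise, 78 of 128 listed cytosines in 2 h replicate 1 and 56 of 94 in 6 h replicate 1 lay in the 3′ UTR, against 12 of 72 and 6 of 39 in the other replicates. The coding mean before scaling was 162 and 167 reads before KCl, 672 and 567 after 2 h, and 373 and 309 after 6 h.

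**Figure D3:**
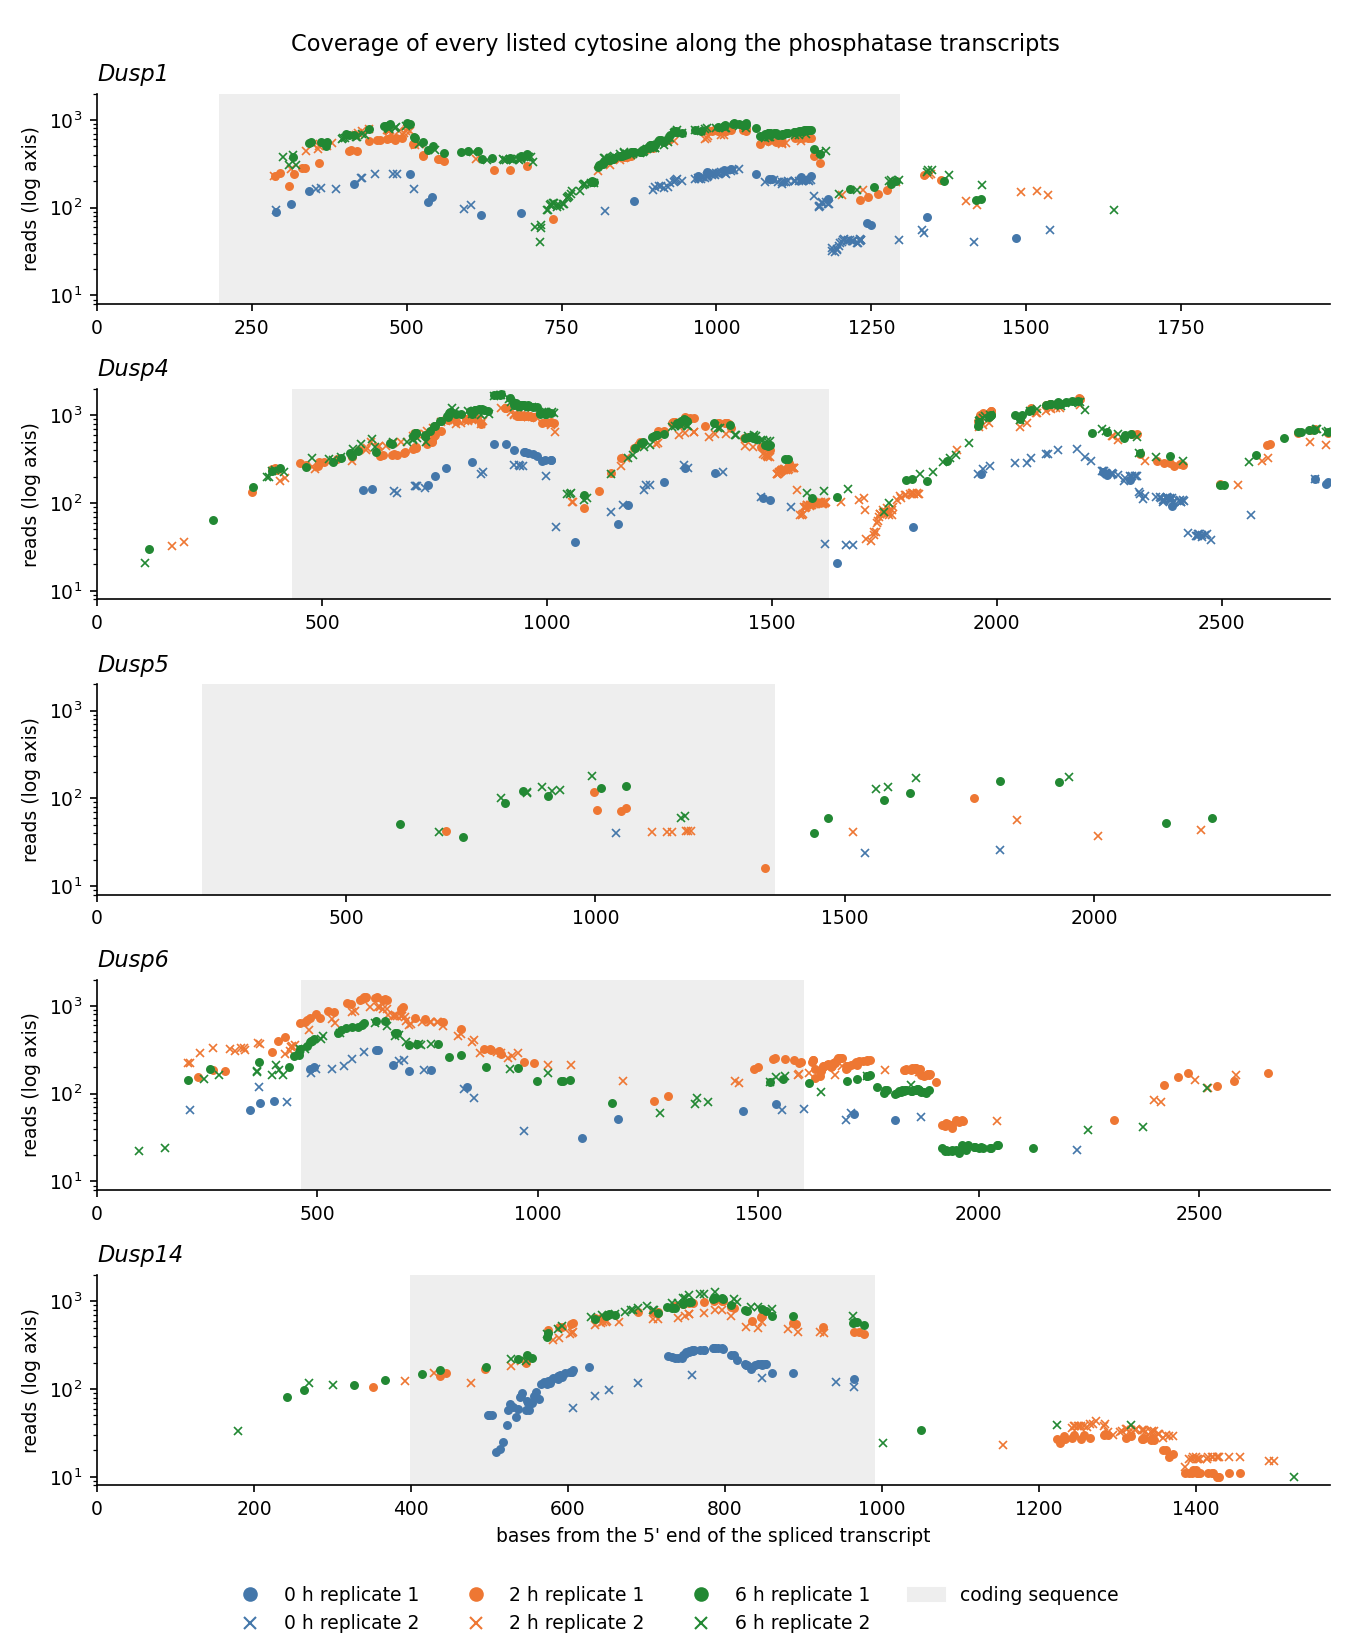
Coverage in reads (log axis) of every listed exonic cytosine against its distance in bases from the 5′ end of the spliced transcript, coloured by time of KCl, with circles for replicate 1 and crosses for replicate 2 and the coding sequence shaded. The 0 h libraries lie below the KCl libraries over most of Dusp1, Dusp4, Dusp6, and Dusp14, and the 2 h listings of Dusp14 include a dense group in the 3′ UTR at a mean of 20.25 and 28.1 reads.

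Dusp5 was the least covered of the 5 genes. It had 0 and 3 listed cytosines before KCl, 7 and 10 after 2 h, and 15 and 14 after 6 h, of 712 cytosines in its transcript. The scaled mean coverage was 35.5 in 0 h replicate 2, 62.1 and 43.7 after 2 h, and 96.4 and 112 after 6 h. The 6 h libraries lay above the 2 h libraries, and the single 0 h value lay below both. With the filter applied to the 4 libraries of 2 h and 6 h alone, which was added after the data were seen, Dusp5 could be tested between them. Its level was 2.00-fold higher after 6 h (log2 1.00, SE 0.31), which was not called (limma adjusted p = 0.0772), where 15.4% of 11002 genes were called in either direction. No fold change against 0 h is given.

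On interpolated coverage, which is a level per cytosine, the means of the 4 genes stood in the same order at each time point, and the overlap between neighbours varied. At 0 h, Dusp14 (172 ± 39.1), Dusp4 (169.5 ± 13.7), and Dusp1 (154 ± 12.7) overlapped between libraries, and Dusp6 (112 ± 9.73) lay below them. At 2 h, Dusp14 (605 ± 25.8) was followed by Dusp4 (520 ± 48.1), and Dusp1 (387 ± 75.5) and Dusp6 (342.5 ± 1.44) overlapped. At 6 h, the order was Dusp14 (805 ± 16.1), Dusp4 (571 ± 57.6), Dusp1 (470 ± 57.6), and Dusp6 (222 ± 16.7), and no neighbours overlapped (SD, n = 2 throughout). By the main value, in contrast, Dusp14 had the lowest mean of the 4 after 2 h (236), and Dusp4 the highest after 6 h (741). The Dusp14 window of 94 cytosines is the shortest, lies within its coding sequence, and leaves out its thinly covered 3′ UTR. By the coding mean before scaling, Dusp6 (672 and 567 reads) lay above Dusp14 (643 and 518) after 2 h in the same replicates. After 6 h, Dusp14 (685 and 819) overlapped with Dusp4 (842 and 740). The order of the genes thus depends on the stretch compared, and how evenly each transcript was covered was not tested.

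**Figure D4:**
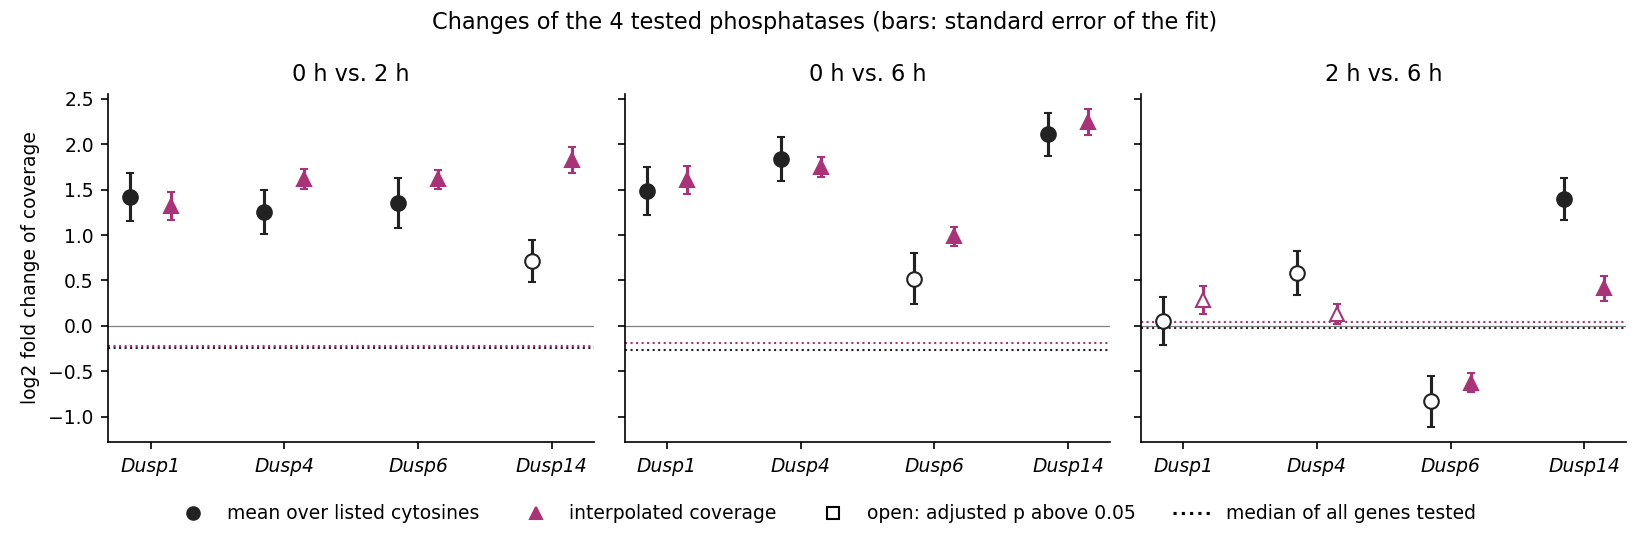
Log2 fold change of coverage of the 4 tested phosphatases in each comparison, by the mean over listed cytosines (circles) and by interpolated coverage (triangles), with bars for the standard error of the limma fit, open symbols for an adjusted p above 0.05, and dotted lines at the median of all genes tested. Both values are above 0 for every gene after 2 h and 6 h, and they lie farthest apart for Dusp14 after 2 h, at 0.72 and 1.83.

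With sums over listed cytosines in place of means, which also count how many cytosines were listed, the folds against 0 h were larger in all 4 genes. After 2 h they were 5.94 for Dusp4 and 13.0 for Dusp6, both called. They were 3.07 for Dusp1 and 5.15 for Dusp14 then, not called (limma adjusted p = 0.2885 and 0.255). After 6 h they were 6.85 for Dusp1 and 7.41 for Dusp4, both called. They were 4.59 for Dusp6 and 6.7 for Dusp14 then, not called (limma adjusted p = 0.0515 and 0.106).

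The calls after 2 h depended on single libraries for the main value. With any of the 4 libraries of the comparison left out, Dusp1, Dusp4, and Dusp6 were no longer called (adjusted p up to 0.148), with log2 changes of 1.00 to 1.65. Dusp4 and Dusp6 also lost the call after 2 h without either 6 h library, which shares the estimate of spread (adjusted p 0.0505 to 0.0593). The calls after 6 h stayed for Dusp1, Dusp4, and Dusp14 with each library left out, the 6 h replicate 1 library included (highest adjusted p 0.0465). By interpolated coverage, all 8 calls against 0 h stayed with each library left out, with a highest adjusted p of 0.0118. The call of Dusp14 between 2 h and 6 h was lost without any of the 4 libraries compared by that value, and by the main value without 2 h replicate 2 or either 6 h library (adjusted p up to 0.0628). The fall of Dusp6 by interpolated coverage stayed.

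RefSeq promoter windows of the GRCm38 assembly were read for 4 of the 5 genes (not Dusp4), over the 250 bases before the RefSeq start. That start can differ from that of the GENCODE transcript used for coverage. The cyclic AMP response element (CRE, TGACGTCA), to which CREB binds, its core TGACG, the CArG box, to which serum response factor binds, and the AP-1 site TGANTCA were searched on both strands. The Dusp1 and Dusp5 stretches that hold matches are printed 5′ to 3′ on the strand of the gene, with matched bases in capitals.
Dusp1, chr17:26508593-26508678, minus strand: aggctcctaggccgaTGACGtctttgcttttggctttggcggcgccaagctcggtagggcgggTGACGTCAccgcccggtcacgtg
Dusp5, chr19:53529048-53529109, plus strand: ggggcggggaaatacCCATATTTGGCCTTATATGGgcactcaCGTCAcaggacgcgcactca

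Dusp1 held a full CRE, 143 to 136 bases before its start, as did 1.55% of 32851 windows. The core TGACG, which the full CRE contains on both strands, was also found 191 to 187 bases before its start, and 17.8% of windows held it. Dusp5 held 2 adjoining CArG boxes, 82 to 73 and 72 to 63 bases before its start, and 1.47% of windows held at least 1. It also held the core TGACG on the other strand, 55 to 51 bases before the start. The windows of Dusp6 and Dusp14 held none of the 4 motifs, and none of the windows of the 4 genes held the AP-1 site, which 6.75% of windows held. The Dusp14 window (chr11:84068358-84068607, minus strand) lies after the start of the transcript used for coverage, at 84068801. Bases before that start were not searched. These matches describe the sequence, and binding was not measured here.

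The other MAP kinase phosphatases did not move as a block. Of 6 genes in that list, 3 were tested, and Dusp2, Dusp9, and Dusp10 were not. At 2 h, Dusp16, a phosphatase of JNK and p38, was called higher (3.79-fold, log2 1.92, limma adjusted p = 0.0175), as was Dusp8, with a similar preference (1.58-fold, log2 0.66, adjusted p = 0.04735). Dusp7, a cytoplasmic ERK phosphatase closely related to Dusp6, was called lower after 2 h (log2 −1.37, adjusted p = 0.03395). Over all genes, 1.64% were called higher and 6.34% lower after 2 h. At 6 h, Dusp16 was called higher (2.34-fold) and none lower by the main value, while by interpolated coverage 2 of the 3 were called higher and 1 lower, where 21.2% and 41.9% of all genes were. Of 10 atypical dual-specificity phosphatases, 8 were tested and 0 were called after 2 h with limma, where 2 had an unadjusted p of at most 0.05 and 4 were called lower by interpolated coverage, against 36.5% of all genes. At 6 h, Dusp12 and Dusp23 were called lower than before KCl (log2 −1.64 and −1.68) and none was called higher, where 22.4% of all genes were called lower. By interpolated coverage, 1 was called higher and 4 lower. Their median log2 change was −0.45 after 2 h and −0.39 after 6 h, against −0.24 and −0.26 over all genes tested.

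Genes of the MAP kinase cascades, upstream members included, were also read from fixed lists. Of 12 genes of the ERK cascade, all tested, 0 were called after 2 h (4 with an unadjusted p of at most 0.05, and 2 higher and 5 lower by interpolated coverage, against 7.39% and 36.5% of all genes). At 6 h 2 were called higher and 3 lower, against 6.95% and 22.4% of all genes. The kinase Braf was among those higher (2.26-fold), and Mapk3, which encodes ERK1, and the scaffold Ksr2 were among those lower (log2 −0.95 and −1.23). Of 10 tested genes of the JNK and p38 cascades, 1 was called lower after 2 h, when 6.34% of all genes were, and 2 higher and 1 lower after 6 h. By interpolated coverage, 0 were called higher and 2 lower after 2 h. After 6 h, 4 were higher and 2 lower by that value, against 21.2% and 41.9% of all genes. From 2 h to 6 h, 4 were higher and 1 lower by the main value, against 10.3% and 11.2%. Interpolated coverage gave 7 higher and 1 lower there, against 32.0% and 28.3%. Map2k3, a kinase that activates p38, had 149 and 155 scaled reads per cytosine before KCl, 48.0 and 46.4 after 2 h, and 115 and 135 after 6 h. Map3k5, an upstream stress kinase, was 6.28-fold higher after 6 h than before KCl (adjusted p = 0.00377), and Mapk11, a p38 kinase, was lower (log2 −1.66, adjusted p = 0.0083).

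Among other feedback inhibitors of ERK signaling, 6 of 7 genes were tested. Spry2, a Sprouty protein that restrains receptor signaling to ERK, was called higher after 2 h (2.39-fold, limma adjusted p = 0.0123). At 6 h, Spry2 (2.74-fold), Spry4 (5.05-fold), and Spred3 (2.86-fold) were called higher and none lower, against 6.95% and 22.4% of all genes, and by interpolated coverage all 6 were called higher, against 21.2%. Spry2 had 380 and 385 scaled reads per cytosine before KCl, 826.5 and 1014 after 2 h, and 1134 and 971.5 after 6 h. The 0 h libraries of Spry4 were low and unequal, at 57.8 and 25.5, against 211 and 177 after 6 h. The median log2 change of the list was 0.07 after 2 h and 0.89 after 6 h, against −0.24 and −0.26 over all genes tested.

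Of 12 transcription factors that respond to ERK, 10 were tested. By the main value, 4 were called higher after 2 h, against 1.64% of all genes, and 5 higher and 1 lower after 6 h, against 6.95% and 22.4%. By interpolated coverage, 7 were called higher and 1 lower after 2 h, against 7.39% and 36.5% of all genes, and 7 higher and 2 lower after 6 h, against 21.2% and 41.9%. Fos had 40.8 and 37.5 scaled reads per cytosine before KCl, 4927 and 5334 after 2 h, and 3553 and 2376 after 6 h, a rise of 131-fold after 2 h (adjusted p = 3.86e-05). Junb rose 31.3-fold, Ier2 7.76-fold, and Fosl2 3.42-fold after 2 h. The 0 h libraries of Junb were unequal, at 44.1 and 161 scaled reads per cytosine, against 2294 and 3022 after 2 h. Jun was lower after 6 h (log2 −2.07, adjusted p = 0.00284). The folds of the phosphatases after 2 h, 1.64 to 2.69 by the main value, lay below those of the 4 called factors. The median log2 change of the 10 tested factors was 1.22 after 2 h and 1.11 after 6 h, against the same −0.24 and −0.26. After 2 h this median lay below the changes of Dusp1 (1.43), Dusp6 (1.35), and Dusp4 (1.25) and above that of Dusp14 (0.72).

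For each tested phosphatase, the genes with the most similar pattern were those with the smallest root mean square distance of log2 scaled coverage over the 6 libraries, each gene centred on its 0 h mean. For Dusp1 they were Mfsd14a, Spry2, and Chd2 (distances 0.155, 0.158, and 0.207). Spry2 is thus both the feedback inhibitor described above and the second nearest of 10793 genes to Dusp1. For Dusp4 they were Myo1e, Grasp, and Acsl4 (0.142, 0.183, and 0.196), and for Dusp6 they were Ptbp1, Plk2, and Kpna2 (0.196, 0.220, and 0.245). For Dusp14 they were Igf1, Rassf3, and Kcnk9 (0.115, 0.127, and 0.189), on the main value, which after 2 h takes in the 3′ UTR positions described above.

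The cultures were checked against cell type markers. All 6 neuronal markers were listed in every library, with a summed scaled coverage of 37420 and 39460 before KCl, 28420 and 29490 after 2 h, and 27920 and 28810 after 6 h. Every KCl library thus lay below both 0 h libraries, and 1 marker was called lower after 2 h and 1 after 6 h. All 5 astrocyte markers were listed, at a sum of 6026 to 7486 before KCl and 2 h and 4792 to 5097 after 6 h, where 2 were called lower than before KCl. Of 4 microglial markers, Cx3cr1 was listed in every library, at 235 and 357 before KCl and 171 to 201 after KCl, and Csf1r, C1qa, and P2ry12 in none. Of 3 endothelial markers, Pecam1 was listed in 3 libraries, both of 2 h and 6 h replicate 2, at 15.2 to 22.9, and Cldn5 and Flt1 in none. All 4 oligodendrocyte lineage markers were listed, at a sum of 2817 and 3259 before KCl, 1926 and 1764 after 2 h, and 2671 and 2891 after 6 h. Against 0 h, 1 was called lower at each time, and 2 were called higher from 2 h to 6 h. Of 4 progenitor markers, 3 were listed, at a sum of 1462 to 1553 before KCl and 674 to 789 after KCl, with 1 called lower at each time. Over all genes, 6.34% were called lower after 2 h and 22.4% after 6 h, and 10.3% higher from 2 h to 6 h. The part of these cells in the phosphatase changes was not tested.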

How the data were processed

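Poly(A) RNA of 2 cultures at each of 3 time points was analysed. Per the methods, reads trimmed by Trim Galore were mapped to mm10 (GRCm38) by meRanTK, whose caller listed the cytosines. The authors deposited counts per position (coverage, unconverted reads, and reads with another base), without normalization, and the level as a fraction. The level was recomputed from the deposited counts. All 5236685 nuclear positions checked were cytosines in the reference. The 3C filter of the study was not applied here.

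The 5 members, the gene lists, and the tests were chosen with earlier results of these data known. The named genes were the members, at most 4 called genes per list and comparison with the largest change, and the 3 most similar genes per member. Interpolated coverage, means outside runs, and the filter in 4 libraries were added after the data were seen. limma 3.58.1 in R 4.3.3 was used with a mean-variance trend and no pseudocount. Site levels were compared by Fisher's exact test, two-sided, on reads summed over replicates (Python 3.11.15, scipy 1.17.1) over sites with at least 10 reads in the 4 libraries compared. Both tests were tested on simulated data. Coverage is not a count of independent reads, so no count model was used. The values of 1 gene on these lists are not reported here.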

Additional observations from a re-analysis of the deposited data

How the results depend on the processing

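Counts of called genes moved with the gene value. With the comparisons in the order 2 h against 0 h, 6 h against 0 h, and 6 h against 2 h, 861, 3167, and 2319 genes were called, and 4053, 6252, and 5988 with an additive position model, 4433, 6374, and 6086 with interpolated coverage, and 429, 1652, and 1460 with sums. For 0 h vs. 2 h, positions listed in all 6 libraries gave 1544, means outside runs 1608, and at least 20 listed cytosines 351 (1480 for 2 h vs. 6 h). Leaving out each library gave 39 to 545, 1271 to 2965, and 299 to 1716. The lowest counts come from fits with fewer samples, and the other causes were not tested. Scaling by the median gene ratio turned the split of higher and lower calls from 177 and 684 to 351 and 351 after 2 h, and from 750 and 2417 to 1452 and 1439 after 6 h. Sums turned it to 910 and 742 after 6 h, and from 1113 and 1206 to 1060 and 400 for 2 h vs. 6 h.

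Among the phosphatases, sums ended the calls of Dusp1 after 2 h (log2 1.62) and of Dusp14 after 6 h (2.74) and for 2 h vs. 6 h (0.38), and the last was also lost with the additive model (0.36) and outside runs (0.80). Dusp14 gained a call after 2 h with the additive model (1.93), interpolated coverage (1.83), and outside runs (1.74). Dusp6 gained calls after 6 h (0.97, 0.99, and 0.86) and for 2 h vs. 6 h (−0.72, −0.63, and −0.83) with the same 3 settings, and the latter with scaling by read pairs (−0.93). Dusp1 for 2 h vs. 6 h changed sign with scaling by read pairs (−0.04) and by all listed coverage (−0.07). With each library left out, log2 changes after 2 h were 1.28 to 1.57 for Dusp1, 1.00 to 1.5 for Dusp4, and 1.06 to 1.65 for Dusp6, and for 2 h vs. 6 h they were −0.24 to 0.35 for Dusp1 and 1.25 to 1.54 for Dusp14. By interpolated coverage, 2 h vs. 6 h gave 0.09 to 0.49 for Dusp1 and 0.37 to 0.46 for Dusp14. A replicate block changed no call of a phosphatase and gave 603, 2932, and 1933 called genes, and deviations of libraries with the same number were correlated at r = 0.05, 0.00, and −0.03 over 10794 genes, so the numbers were not taken as pairs.

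Of the sites tested, 267, 205, and 343 were called, 437, 371, and 601 with a level of at least 5%, and 0, 0, and 0 with limma on log2 ratios (211, 88, and 155 at an unadjusted p of at most 0.05). The replicate block gave 240, 215, and 436. Leaving out each library gave 168 to 260, 147 to 509, and 224 to 591. None of these settings had a site in the phosphatases. Their median level was 0.746% to 0.971% before KCl and 0.284% to 0.430% after 6 h with a library left out, and 0.343% after 2 h over positions with at least 50 reads. No value over positions listed in all 6 libraries can be given, since the phosphatases have none. A listed level is bounded by coverage, and Dusp5 had no value in 0 h replicate 1.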
